A study of Mus musculus with 8 samples.

Results

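Complement components and regulators were followed in RNA flushed from the lumen of mouse thoracic aortas. The set held 9 genes: the components C3 and C4b, the convertase proteases C2 and Cfb, the alternative pathway activators Cfd and Cfp, and the inhibitors Serping1, Cd55 and Cd59a. Of the 9, 7 had a probe set whose annotation names that gene alone, out of 30063 such genes on the array. C3 and Cfd were not matched to one and are not analysed here. All animals were female, carried the tamoxifen-inducible recombinase Cdh5-CreERT2, driven by the VE-cadherin promoter, and had Mef2c f/f alleles. Mef2c encodes a DNA-binding factor of the MADS family. Aged 10 weeks, 4 mice received 5 daily tamoxifen injections (Mef2cCdh5EKO, here EKO), and 4 littermates received the vehicle alone, sunflower seed oil with 10% ethanol (Control). Aortas were taken on day 14 after the first injection, and each array held RNA from a single aorta. The drug and the deletion differ together between the groups and cannot be told apart.

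Complement is a cascade of plasma and cell-bound proteins that marks surfaces for removal. Antibody, lectins or spontaneous turnover of C3 start it, and each route assembles a protease, the C3 convertase, from C4 and C2 or from C3 and factor B. The liver makes most of the plasma proteins, while cells of the vessel wall make some of them locally and carry inhibitors such as CD55 and CD59 that protect them from attack.

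None of the 6 genes of the set that could be tested passed the threshold for a difference between EKO and Control aortas. The groups overlapped in each of the 6. Levels are log2 expression values, each difference is EKO minus Control, and a gene counted as past the threshold at a limma adjusted p under 0.05 over the 16232 genes with a mean above 6.14, which is the level of the median probe set. C2 lay below that level, so 6 of the complement genes were tested. Past the threshold were 0 of the 6, beside 0 of all genes tested (0.0%). At an unadjusted p under 0.05 limma also gave 0 of the 6, beside 8.93% of all genes tested. The groups overlapped in all 6, whereas 6.08% of all genes tested had groups that did not overlap. The lowest unadjusted p values were those of Cfp and Cd55, and the differences of C4b, Cfb, Cfp and Cd55 were below 0, those of Serping1 and Cd59a above 0. The median difference of the 6 was -0.16, beside -0.02 over all genes tested.

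**Figure D1:**
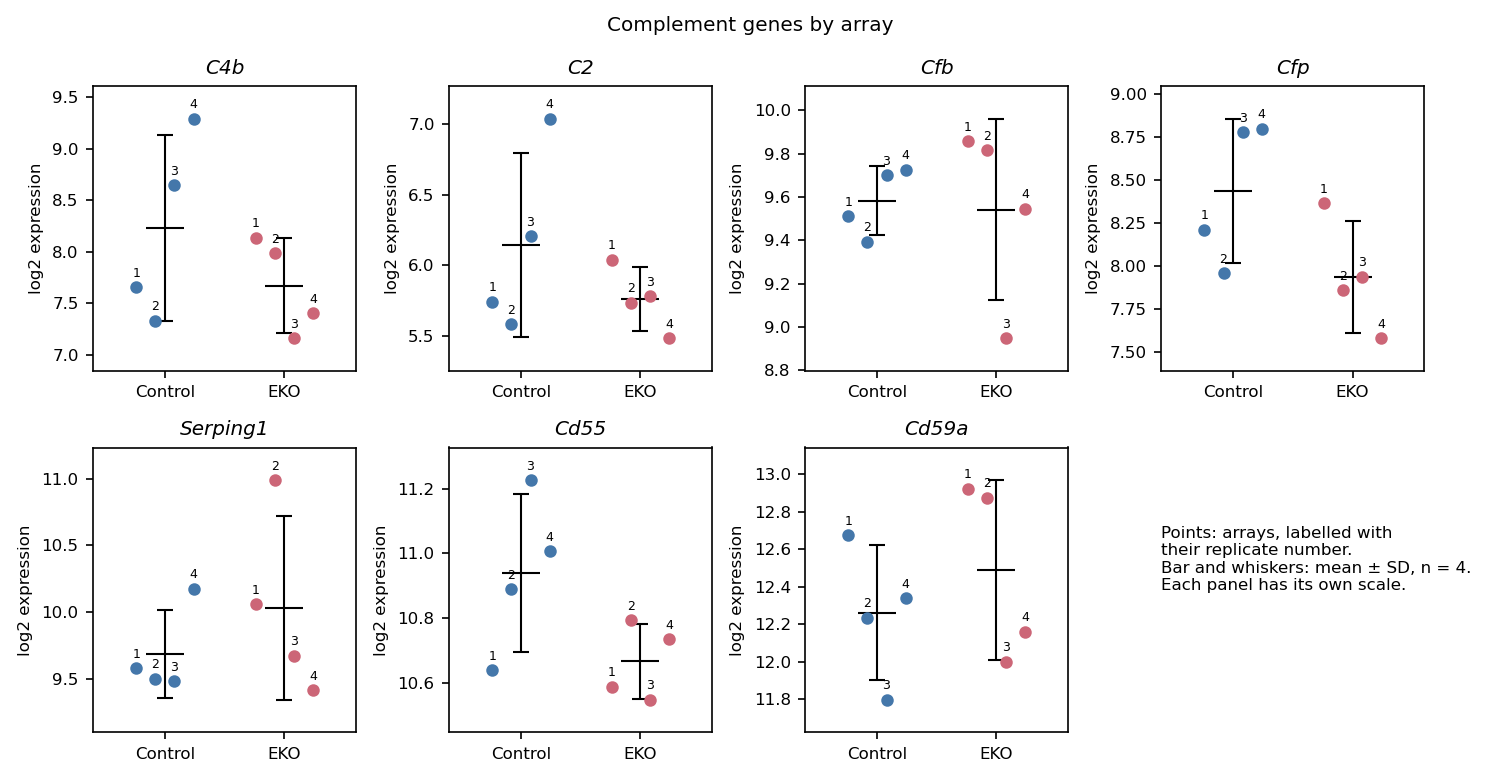
Log2 expression of the 7 complement genes with a probe set, 1 panel a gene with its own vertical scale; points are arrays labelled with their replicate number, and the bar with whiskers is the mean ± SD (n = 4 a group). The groups overlap in every panel, with Control arrays 3 and 4 at the top for C4b, C2 and Cfp, and EKO array 2 at the top for Serping1 (10.99).

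Several arrays stood apart, and they recur below. The 15 tested endothelial identity genes averaged 12.20 ± 0.08 in Control and 12.22 ± 0.09 in EKO arrays (SD, n = 4; exact permutation p = 0.600), among them Pecam1, Cdh5 and Cldn5. RNA of other cells was present too. The mean of 11 white and brown adipocyte markers, Ucp1, Cox8b and Cidea among them, ran from 8.06 to 10.43 over Control and from 7.66 to 9.91 over EKO arrays, lowest on EKO array 2. The mean of 6 mesothelial markers was highest on Control array 4, as were Upk1b (10.64) and Upk3b (11.52), whereas Krt18 was highest on EKO array 1 (11.97). The means of the interferon-response and neutrophil lists were highest on EKO array 2. Mef2c itself read 9.62, 9.79, 9.88 and 9.80 on Control arrays 1 to 4 and 9.56, 9.73, 9.66 and 10.03 on EKO arrays 1 to 4. Its groups overlapped, and because 1 probe set covers the whole transcript, this value does not check the deletion. Negative control probe sets had medians of 7.34 to 7.45 and 95th percentiles of 11.49 to 11.84 on the arrays. Of the 7 complement genes, Cd59a alone averaged above the highest of these percentiles, so the levels of the other 6 lay within the range of the negative controls.

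The DNA before the start sites of Cd55, Cfp and Cd59a is shown because the study deleted a DNA-binding factor, and these are the 3 of the 7 genes for which the RefSeq promoter table (GRCm38.p6) held a sequence. Each run gives the 250 bases before the RefSeq transcription start, 5′ to 3′ on the strand of the gene, with matches to the motifs named below in capitals.
Cd55 (chr1:130462745-130462994, minus strand): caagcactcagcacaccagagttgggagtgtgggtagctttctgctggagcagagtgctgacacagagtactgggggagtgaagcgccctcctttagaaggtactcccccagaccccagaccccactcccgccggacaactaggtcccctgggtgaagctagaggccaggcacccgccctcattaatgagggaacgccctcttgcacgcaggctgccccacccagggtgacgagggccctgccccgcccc
Cfp (chrX:20931556-20931805, minus strand): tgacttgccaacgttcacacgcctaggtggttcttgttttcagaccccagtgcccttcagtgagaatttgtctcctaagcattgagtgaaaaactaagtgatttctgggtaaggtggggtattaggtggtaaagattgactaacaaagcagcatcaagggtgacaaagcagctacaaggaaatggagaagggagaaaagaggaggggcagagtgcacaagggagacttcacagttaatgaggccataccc
Cd59a (chr2:104095551-104095800, plus strand): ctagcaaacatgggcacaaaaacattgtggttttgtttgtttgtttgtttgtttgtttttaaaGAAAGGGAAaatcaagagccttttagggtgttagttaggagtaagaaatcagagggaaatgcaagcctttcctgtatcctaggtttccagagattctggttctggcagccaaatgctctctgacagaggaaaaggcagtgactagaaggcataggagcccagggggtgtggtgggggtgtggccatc
Both strands were searched for 4 motifs, which can overlap each other. A loose form of the MEF2 motif, CTANNNNTA with N any base, had no match in any of the 3 windows. It was held by 19.0% of all 32851 promoter windows of this length, and other forms of MEF2 site were not covered by it. A shortened interferon-stimulated response element, GAAANNGAA, matched once, in Cd59a from 187 to 179 bases before the start. It was present in 7.13% of all windows. The ETS-type motif CCGGAAGT (2.88% of all windows) and the shortened NF-kB motif GGGANTTTC (0.941%) matched none of the 3. The MEF2, interferon and NF-kB forms given here were chosen after a first search with forms 1 base longer at the 3′ end. Of those longer forms, only that of the interferon element matched any of the 3 windows, again in Cd59a. In the same order they were present in 3.2%, 2.98% and 0.356% of all windows. A match or its lack describes only the letters of these windows. Their base composition differed, with 64.0% G and C in Cd55, 46.8% in Cfp and 44.8% in Cd59a, beside a median of 52.4% over all windows.

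C4b encodes complement component C4, which is cleaved to bind target surfaces covalently and seed the classical and lectin pathway convertase. C4b read 7.65, 7.33, 8.64 and 9.29 on Control arrays 1 to 4, and 8.14, 7.98, 7.16 and 7.40 on EKO arrays 1 to 4. Control arrays 3 and 4 lay above every EKO array, while Control arrays 1 and 2 lay among them. The means were 8.23 ± 0.90 and 7.67 ± 0.46 (SD, n = 4), a difference of -0.56 (SE 0.43, 95% interval -1.53 to 0.42, limma adjusted p = 0.683). This corresponds to a 1.47-fold higher mean in Control aortas, with groups that overlapped. Without Control array 4 the difference was -0.21, and Control array 2 and EKO array 3 read below the median of their own negative control probe sets.

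The mouse genome holds a close copy of C4b, C4a, whose product is known as sex-limited protein. C4a read 6.82, 6.63, 7.41 and 7.44 on the Control arrays and 7.06, 6.99, 6.64 and 6.74 on the EKO arrays, a difference of -0.22 (SE 0.20). C4a and C4b followed each other over the 8 arrays (Pearson r = 0.974, exact permutation p = 4.96e-05, adjusted over 3 copy pairs 9.92e-05; Spearman rho = 0.976, exact permutation p = 0.000397, adjusted 0.00114). Without Control arrays 3 and 4 r was 0.987. C4a read below the median of its own negative control probe sets on 6 of the 8 arrays, which limits this relation. Because such copies are alike in sequence, their probes may read each other's transcript, and the level of C4b alone is uncertain.

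C2 and Cfb encode the proteases that cleave C3 within the classical and lectin, and the alternative, convertase, and the genes lie next to each other in the class III region of the major histocompatibility complex. C2 read 5.74, 5.58, 6.21 and 7.04 on Control arrays 1 to 4 and 6.04, 5.74, 5.78 and 5.48 on EKO arrays 1 to 4. Every array was below the median of its negative control probe sets, so C2 was at or near background. Control arrays 4 and 3 were the highest of the 8, and EKO array 4 was the lowest. The means, 6.14 ± 0.65 and 5.76 ± 0.23 (SD, n = 4), differed by -0.38 (SE 0.35, two-sided exact permutation p = 0.343), and by -0.08 without Control array 4. A further probe set of C2 read 4.20, 4.29, 4.07 and 4.20 on Control arrays 1 to 4. On EKO arrays 1 to 4 it read 4.29, 4.31, 4.25 and 4.24. It was lowest on Control array 3 and so did not follow the brighter probe set, on which the other C2 values rest. With both probe sets averaged the difference of C2 was -0.15.

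Cfb was above the negative control medians on all 8 arrays and lay close together in the Control group. It read 9.51, 9.39, 9.70 and 9.73 on Control arrays 1 to 4 and 9.86, 9.82, 8.95 and 9.55 on EKO arrays 1 to 4. EKO array 3 was the lowest and EKO arrays 1 and 2 were the highest of all 8, so the EKO group enclosed the Control group. The means, 9.58 ± 0.16 and 9.54 ± 0.42 (SD, n = 4), differed by -0.04 (SE 0.20, 95% interval -0.49 to 0.40, limma adjusted p = 0.952). The sign was not stable, since leaving out EKO array 3 gave 0.16 and leaving out Control array 4 gave 0.0069.

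Cfp encodes properdin, the plasma protein that stabilises the alternative pathway convertase and is made mainly by leukocytes. Cfp read 8.21, 7.96, 8.78 and 8.80 on Control arrays 1 to 4, and 8.37, 7.86, 7.94 and 7.58 on EKO arrays 1 to 4. Control arrays 3 and 4 exceeded every EKO array, and 3 EKO arrays lay below every Control array, but EKO array 1 lay above Control arrays 1 and 2. The means were 8.44 ± 0.42 and 7.94 ± 0.32 (SD, n = 4), a difference of -0.50 (SE 0.23, 95% interval -1.02 to 0.02), or 1.41-fold higher in Control. The limma adjusted p was 0.567 and the unadjusted p 0.0584. An unadjusted p under 0.1 with a difference below 0 was found for 2 of the 6 genes, Cfp and Cd55, beside 7.66% of all genes tested. The 0.1 cutoff and the direction are not those of the threshold set above and fit these 2 genes. This count therefore supports nothing further.

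Of the inhibitors, Serping1 encodes the C1 inhibitor, a serpin that blocks the C1r, C1s and lectin-pathway proteases and also plasma kallikrein. Serping1 read 9.58, 9.50, 9.48 and 10.17 on Control arrays 1 to 4, and 10.06, 10.99, 9.67 and 9.41 on EKO arrays 1 to 4. EKO array 2 was the highest of all, and EKO array 4 the lowest. The means were 9.68 ± 0.33 and 10.03 ± 0.69 (SD, n = 4), a difference of 0.35 (SE 0.32, 95% interval -0.39 to 1.09, limma adjusted p = 0.734). Without EKO array 2 the difference was 0.03.

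Cd55 encodes decay-accelerating factor, a membrane-anchored protein that takes convertases apart. It read 10.64, 10.89, 11.23 and 11.01 on Control arrays 1 to 4 and 10.59, 10.79, 10.55 and 10.73 on EKO arrays 1 to 4. All 4 EKO arrays lay below Control arrays 2, 3 and 4, and Control array 1 lay among the EKO arrays. The means were 10.94 ± 0.25 and 10.67 ± 0.12 (SD, n = 4), a difference of -0.27 (SE 0.13, 95% interval -0.56 to 0.01, limma adjusted p = 0.567, unadjusted p = 0.0591). This is a 1.21-fold higher mean in Control, with EKO arrays 1 and 3 below the lowest Control array. Without Control array 1 the difference was -0.38, and without Control array 3 it was -0.18.

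Cd59a encodes a small membrane-anchored protein that keeps C9 from joining the membrane attack complex. It read 12.67, 12.24, 11.80 and 12.34 on Control arrays 1 to 4 and 12.92, 12.88, 12.00 and 12.16 on EKO arrays 1 to 4. EKO arrays 1 and 2 lay above every Control array, and EKO arrays 3 and 4 lay between Control arrays 3 and 2. The means were 12.26 ± 0.36 and 12.49 ± 0.48 (SD, n = 4), a difference of 0.23 (SE 0.26, 95% interval -0.36 to 0.81, limma adjusted p = 0.785). Leaving out Control array 3 gave 0.07, and leaving out EKO array 3 gave 0.39.

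Both membrane inhibitors have a second gene copy in the mouse, Cd55b and Cd59b, and the level of each copy was correlated with that of its partner. Cd55b differed by -0.25 (SE 0.12) and followed Cd55 over the 8 arrays (Pearson r = 0.977, exact permutation p = 9.92e-05, adjusted 9.92e-05; Spearman rho = 0.952, exact permutation p = 0.00114, adjusted 0.00114). Cd59b differed by 0.14 (SE 0.17) and followed Cd59a (Pearson r = 0.987, exact permutation p = 9.92e-05, adjusted 9.92e-05; Spearman rho = 0.952, exact permutation p = 0.00114, adjusted 0.00114). Without the 2 arrays farthest from the median r was 0.968 and 0.973. As for C4b, the probes of a copy may read its partner's transcript, so the paired values are not independent of each other. Whether they do was not tested.

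**Figure D2:**
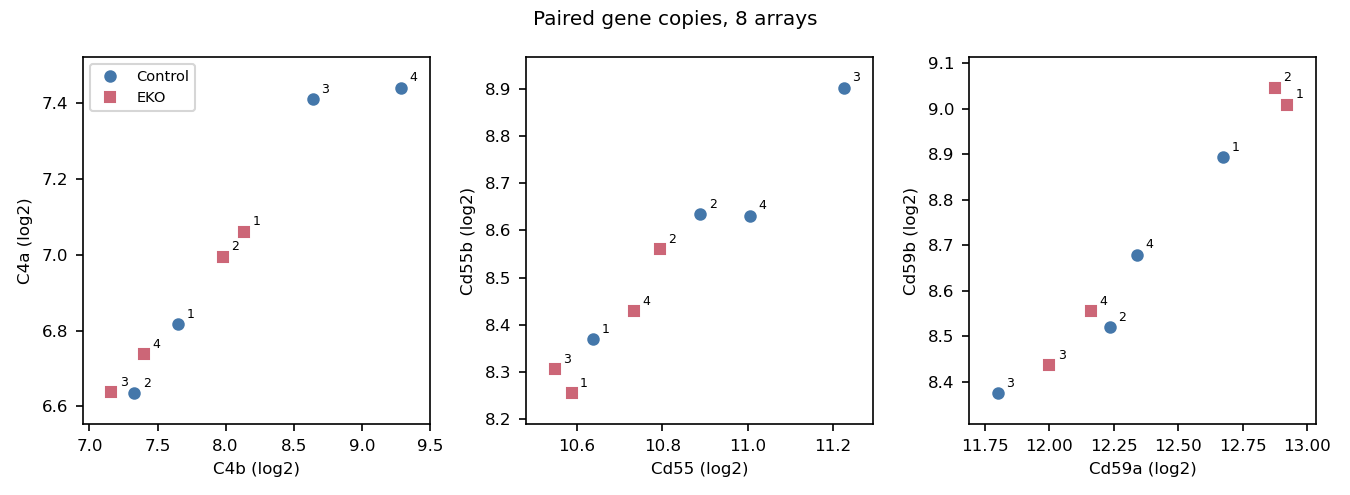
Log2 expression of C4a against C4b, Cd55b against Cd55 and Cd59b against Cd59a on the 8 arrays (blue circles Control, red squares EKO, labelled with replicate numbers). In each panel the points fall near 1 line, with Pearson r of 0.974, 0.977 and 0.987, and each axis has its own scale.

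Among the complement genes themselves, 21 pairs were set against each other over the 8 arrays. The levels of C2, C4b and Cfp were correlated with each other, and 3 of the 21 pairs had an adjusted p under 0.05 for Pearson r. C2 and Cfp had r = 0.857 (exact permutation p = 0.000372, adjusted over 21 pairs 0.00781) and Spearman rho = 0.881 (exact permutation p = 0.00724, adjusted 0.152). Their r was 0.846 without Control arrays 3 and 4, 0.855 within Control and 0.992 within EKO arrays. C4b and C2 had r = 0.918 (exact permutation p = 0.00184, adjusted 0.0193; rho = 0.714, exact permutation p = 0.0576, adjusted 0.302), which was 0.641 without Control arrays 3 and 4. C4b and Cfp had r = 0.858 (exact permutation p = 0.00655, adjusted 0.0458; rho = 0.738, exact permutation p = 0.0458, adjusted 0.302), which was 0.524 without them. The last relation therefore rests largely on those arrays, and none of the 3 passed by Spearman rho after adjustment. C2 lies below the negative control medians, which limits both of its relations.

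The levels were next set beside markers of other cell types. Fibroblast markers (9 tested, with Mfap5, Dcn and Clec3b the brightest) averaged 9.43 ± 0.32 in Control and 9.11 ± 0.21 in EKO arrays (SD, n = 4), a difference of -0.32 with 8 of 9 genes lower and an exact permutation p of 0.171. Of all 16232 genes tested, 8939 were lower in EKO. In Pi16 and Col1a2, named after their values were seen, every EKO array lay below every Control array. Groups without overlap made up 6.08% of all genes tested. Limma gave these 2 genes an unadjusted p under 0.05, beside 8.93% of all genes tested, and 0 of the 9 passed the threshold. Col1a1, Col1a2 and Col3a1 averaged below the negative control medians. The list mean ran from 9.13 to 9.73 in Control and from 8.88 to 9.37 in EKO arrays, and Control arrays 3 and 4 were the highest. In bulk RNA, fewer cells of a type and less RNA per cell cannot be told apart. Of the 35 relations of the 7 genes with 5 marker lists, 5 had an unadjusted exact permutation p under 0.05 for Pearson r and 0 passed after adjustment, by Pearson r or by Spearman rho. The closest was Cfp against the fibroblast list (r = 0.877, exact permutation p = 0.00474, adjusted 0.135; rho = 0.810, exact permutation p = 0.0218, adjusted 0.582), with r = 0.510 without Control arrays 3 and 4. C4b had r = 0.813 (exact permutation p = 0.0155, adjusted 0.180; rho = 0.667, exact permutation p = 0.0831, adjusted 0.582) and 0.196 without these arrays. C2 had r = 0.805 (exact permutation p = 0.00771, adjusted 0.135; rho = 0.619, exact permutation p = 0.115, adjusted 0.671) and 0.353 without them. The relations of C4b and C2 with this list thus rest on Control arrays 3 and 4. Within Control arrays r was 0.949 for C4b, 0.863 for C2 and 0.957 for Cfp, and within EKO arrays 0.264, 0.439 and 0.547.

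With the fibroblast mean as a covariate, the differences of several complement genes shrank or turned. That of Cfp became -0.14 (limma adjusted p = 0.879), that of Cd55 -0.16 (0.815), that of C4b 0.09 (0.966) and that of C2 0.05. With 8 arrays and a list mean that itself differs between the groups, such a fit cannot separate the list from the group. The part of fibroblast RNA in these differences was not tested beyond it. Adipocyte markers were also lower in EKO arrays, by -0.51 (10 of 11 genes lower, exact permutation p = 0.486). That difference was -0.12 without EKO array 2, -0.15 without Control array 3, -0.24 without Control array 4, -0.94 without Control array 2 and -0.87 without EKO array 1. Against that list Cfp had r = 0.744 (exact permutation p = 0.0392, adjusted 0.272; rho = 0.714, exact permutation p = 0.0576, adjusted 0.582) and 0.620 without Control array 3 and EKO array 2. C4b had r = 0.686 (exact permutation p = 0.0605, adjusted 0.272; rho = 0.690, exact permutation p = 0.0694, adjusted 0.582) and 0.828 without these arrays. With the adipocyte mean as a covariate Cfp differed by -0.36 and C4b by -0.33.

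**Figure D3:**
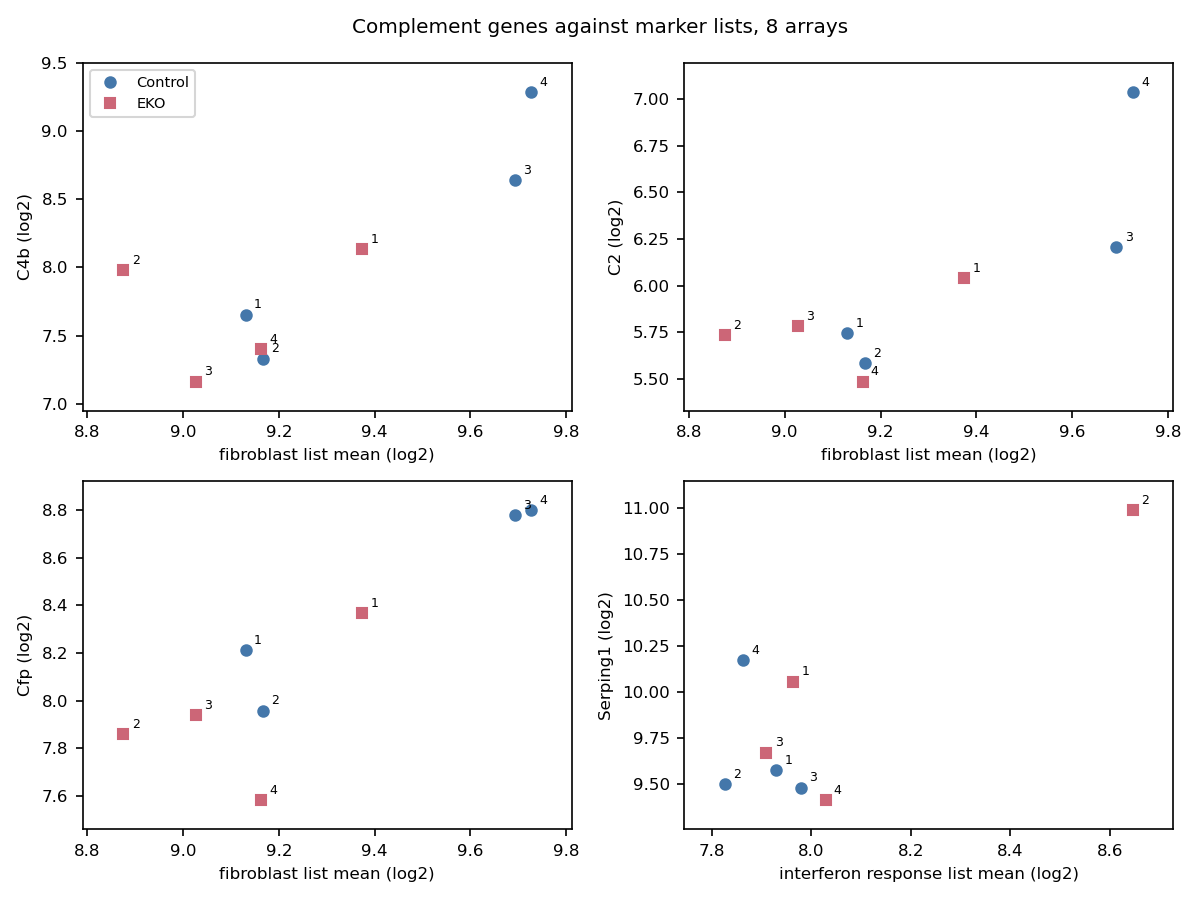
Log2 expression of C4b, C2 and Cfp against the mean of 9 fibroblast markers, and of Serping1 against the mean of 8 interferon-response genes, on the 8 arrays (blue circles Control, red squares EKO, labelled with replicate numbers). Control arrays 3 and 4 hold the upper right of the first 3 panels, and EKO array 2 stands alone in the last, at 8.65 on the list and 10.99 for Serping1.

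Serping1 is known to rise with interferon, and its value was set beside the 8 tested interferon-response genes. Their mean was 7.90 ± 0.07 in Control and 8.14 ± 0.34 in EKO arrays (SD, n = 4; 7 of 8 genes higher, exact permutation p = 0.143), with EKO array 2 highest at 8.65. In 3 of the 8 genes, Ifit3, Ifit1 and Usp18, every EKO array lay above every Control array. Groups that did not overlap were found for 6.08% of all genes tested. Limma gave these 3 an unadjusted p under 0.05, beside 8.93% of all genes tested, and 0 of the 8 passed the threshold. All 3 were highest on EKO array 2, and Ifit1 and Usp18 were named after their values were seen. Usp18 averaged 6.23 in Control and 6.63 in EKO, below the negative control medians, as did Ifit1 in Control (7.20). Without EKO array 2 the difference of the list was 0.07 in place of 0.24. Of its 3 brightest genes Ifit3 differed by 0.67 and Ifit2 by 0.31, both highest on EKO array 2, while the brightest, Rsad2, differed by -0.75 and was highest on Control array 3 (10.97). Serping1 had r = 0.790 with this list (exact permutation p = 0.0934, adjusted 0.363), but rho = -0.02 (exact permutation p = 0.977, adjusted 1.0), and r = -0.668 without EKO array 2 and Control array 2. The relation thus rests on those arrays. Neutrophil markers (6 tested, with S100a8, S100a9 and Retnlg the brightest) were also highest on EKO array 2, with 6 of 6 genes higher in EKO and list means of 6.19 to 7.88 in Control and 6.69 to 9.13 in EKO arrays. Of all 16232 genes tested, 7293 were higher in EKO. Among the 6 neutrophil genes, S100a8 and S100a9 alone averaged above the highest negative control median. The list mean was 0.64 higher in EKO arrays (exact permutation p = 0.400), of which 0.12 remained once EKO array 2 was left out. Serping1 had r = 0.814 with them (exact permutation p = 0.0254, adjusted 0.223; rho = 0.381, exact permutation p = 0.360, adjusted 0.741), and 0.253 without the same arrays. The part of leukocyte RNA in the Serping1 value of EKO array 2 was not tested.

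Of 51 other complement genes, 47 had a probe set and 22 were tested. Past the threshold were 0 of the 22 (11 higher and 11 lower in EKO, median difference -0.01), and limma gave 0 at an unadjusted p under 0.05, beside 8.93% of all genes tested. The groups did not overlap in 1 of the 22, beside 6.08% of all genes tested. It was the C8 gamma chain gene C8g, named after its values were seen, at 6.19 in Control and 6.30 in EKO, below the negative control medians. Among the 9 tested genes of the initiation steps, C1ra, the C1r protease, differed by 0.14 (SE 0.09), its relative C1rl by 0.15 (SE 0.10) and the scavenger collectin Colec12 by -0.09 (SE 0.16). The other 6 of them, the C1q chains C1qa and C1qc among them, averaged below the highest negative control median.

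Few of the fluid-phase and terminal genes passed the level filter. Of 7 genes for C5 to C9, C8g alone was tested, and of 9 fluid-phase regulator genes 2 were. Clu, which encodes clusterin, an inhibitor of the membrane attack complex, averaged 15.42 in Control and differed by -0.08 (SE 0.07). Membrane regulators were all above the negative control medians where tested, 5 of 9 listed. Cr1l, the rodent regulator Crry, averaged 14.72 in Control and differed by 0.03 (SE 0.06, 95% interval -0.11 to 0.18), Cd46 by -0.18 (SE 0.11) and Thbd, which encodes thrombomodulin, by -0.31 (SE 0.17). Of the receptor list, 5 of 10 were tested. Cd93, an endothelial lectin-like receptor once described as a C1q receptor, differed by -0.11 (SE 0.09), C1qbp by -0.03 (SE 0.12), and Itgb2, the shared beta chain of complement receptors 3 and 4, by 0.24 (SE 0.39). The limma adjusted p of these 22 genes was 0.567 or higher. Cd46, Cd55b, Cd59b, Thbd, C1rl, Colec12, Itgb2 and C1qbp averaged below 11.84, the highest 95th percentile of the negative controls. Their levels thus lay within the range of the negative controls, and Itgb2 read 6.93 on Control array 2, below the negative control medians.

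**Figure D4:**
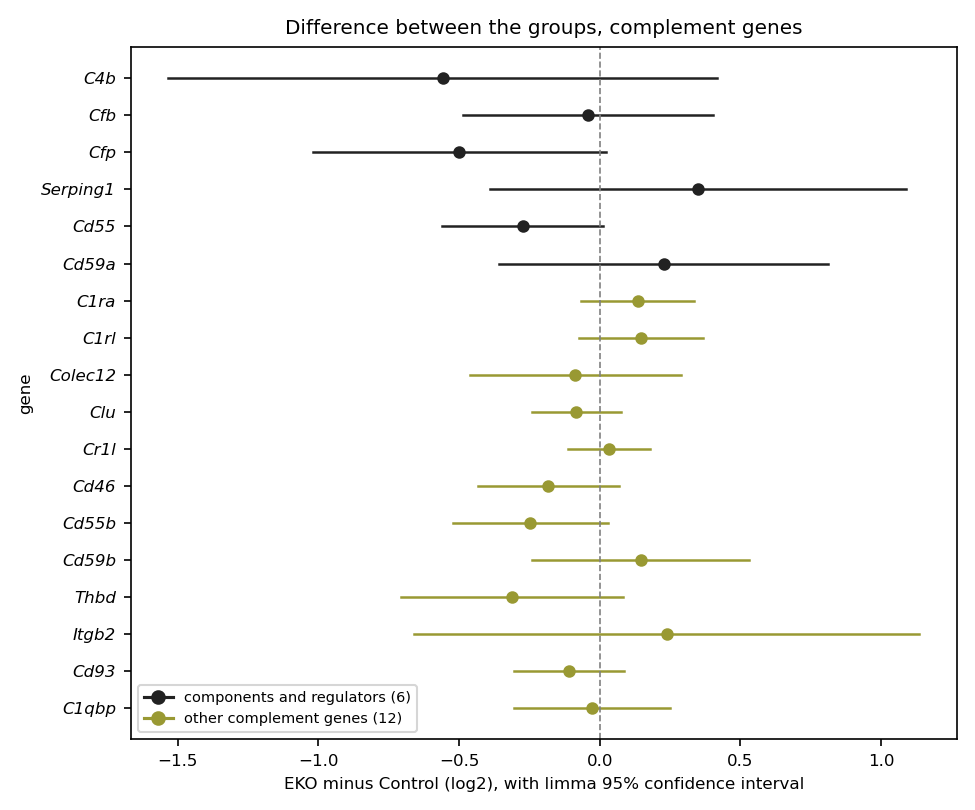
Difference in log2 expression, EKO minus Control, with limma 95% confidence intervals (n = 4 a group), for the 6 tested complement components and regulators (black) and the 12 other complement genes above the negative control medians (olive). Every interval includes 0, and those of Cfp (-1.02 to 0.02) and Cd55 (-0.56 to 0.01) reach least past it among the black ones.

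The genes whose levels followed each complement gene most closely were sought among the 11219 other tested genes with a RefSeq protein, by Pearson r over the 8 arrays, as a description only. For C4b they were Orc4 (0.981), C4a (0.974) and Caprin1 (0.971), and for Cfb Psma3 (0.976), Snrpf (0.974) and Thyn1 (0.963). Cfp was nearest to Taf13 (0.981), the lubricin gene Prg4 (0.973) and Pja1 (0.964). Serping1 was nearest to the T cell receptor complex gene Cd3g (0.965), Neil3 (0.948) and Tbc1d10c (0.943). Cd3g averaged 6.94, below the negative control medians, and was highest on EKO array 2 (7.67), as was Serping1. Cd55 had Cd55b first, then Ttc39b (0.972) and Itgb4 (0.955), and Cd59a had Cd59b first, then Cdkl3 (0.973) and Ifi211 (0.960). These genes were picked for their high r over 8 arrays, so the values support nothing further.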

How the data were processed

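RNA from the aortic lumen of 8 mice, 5 ng a sample, was measured on Affymetrix Mouse Transcriptome Array 1.0 with the WT Pico labelling, per the labels' protocols. Per the labels, the authors ran SST-RMA in the Expression Console software, and each deposited value is a log2 level of a transcript cluster. That method transforms, background-corrects, quantile-normalizes and summarises probes, so arrays were brought to a common overall signal before deposit. Its version and the genome build are not given in the sources used here.

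The table held 72688 probe sets, 6732 of them controls. The platform annotation gave 1 symbol to 30604, several to 2146 and did not list 33206. Symbols were updated through the RefSeq table of GRCm38.p6 (30602 matched, 1135 changed), and the brightest probe set stood for each of 429 repeated symbols. The fit used lmFit and eBayes of limma 3.58.1 under R 4.3.3 (no covariates, Benjamini-Hochberg adjustment), tested on simulated data first. Single values used two-sided exact permutation tests, whose smallest p for 70 assignments is 0.0286. Correlations were tested over all pairings of the 8 arrays. The number of arrays limits every precision, and the labels give no array batch.

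The complement genes, lists and tests were chosen with earlier results of these data known. Named are the complement genes, the other complement genes above the highest negative control median (7.45), the 3 closest genes of each and the 3 brightest genes of each marker list. Mef2c, C4a, C8g, C1qa, C1qc, Ifit1, Usp18, Pi16, Col1a1, Col1a2 and Col3a1 are named besides. Same-numbered arrays deviated together with r of -0.160, 0.206, -0.242 and 0.130, so the numbers were not taken as pairs.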

Additional observations from a re-analysis of the deposited data

Results flagged for a closer look

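In groups of 4 arrays, 6 of 56 groups examined (the complement genes named above and the marker list means) held an array whose gap to its nearest neighbour was large against the range of the group, by Dixon's 95% criterion. Chance alone gives about 1 in 20. Serping1 read 10.17 on Control array 4, where the nearest Control array read 9.58. C1ra read 12.00 on Control array 2, with the nearest Control array at 11.77. C1qbp was lowest on EKO array 3 at 8.21, against 8.35 for the nearest EKO array.

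The other 3 were marker lists. Mesothelial markers averaged 9.80 on Control array 4 and 7.82 on the nearest Control array. On EKO array 2 lymphocyte markers averaged 7.29 against 6.65, and interferon-response genes 8.65 against 8.03. Both lymphocyte means lay below the negative control medians, and of the 7 lymphocyte genes Nkg7 alone averaged above the highest of these medians. Control array 4 was also the highest of all arrays for C4b, C2 and Cfp, and EKO array 2 for Serping1. Whether these cell types take part in those values was not tested.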

How the results depend on the processing

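The counts past the threshold were 0 for all genes, the complement genes and the other complement genes under each of the 13 alternatives in filter, probe set, scaling, variance model, weights, block, covariate and genes tested, without each array in turn, and at an adjusted p under 0.1. With the replicate number as a block 0 genes passed, and 0 when each variance was taken by itself. At an unadjusted p under 0.05 these fits gave 1259 and 1469 genes, and limma without them 1449. The directions of Cfp, Cd55, Serping1 and Cd59a held under every alternative run. With the fibroblast mean as a covariate C4b (0.087), C2 (0.053) and Cfb (0.11) turned, and with the adipocyte mean Cfb did (0.016); the cause was not tested. Cfp and C4b were not tested above the 75th percentile.

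Without single arrays the differences ran from -0.86 to -0.21 for C4b, -0.57 to -0.08 for C2, -0.15 to 0.16 for Cfb, -0.66 to -0.38 for Cfp, 0.03 to 0.56 for Serping1, -0.38 to -0.18 for Cd55 and 0.07 to 0.39 for Cd59a. Of the marker lists, the endothelial mean difference ran from -0.013 to 0.064, the macrophage one from -0.13 (without Control array 2) to 0.16 (0.05 over all arrays, exact permutation p = 0.886) and the lymphocyte one from -0.033 (without EKO array 2) to 0.22 (0.13 over all arrays, exact permutation p = 0.686). Acta2, Tagln and Smtn were the brightest smooth muscle markers, Mertk, Lyz2 and Cx3cr1 the brightest macrophage and Nkg7, Cd3g and Cd3d the brightest lymphocyte ones. The smooth muscle list differed by 0.17 (exact permutation p = 0.257; 0.077 without EKO array 1, 0.094 without Control array 1) and the mesothelial one by -0.59 (exact permutation p = 0.457; -0.045 without Control array 4). The interferon-response difference ran from 0.068 without EKO array 2 to 0.31 without EKO array 3. It was 0.27 after centring on the array median, with an exact permutation p of 0.0286, the smallest possible. No other alternative gave this list an exact permutation p under 0.05. The difference was 0.25 with no level filter (exact permutation p = 0.0571) and 0.25 after quantile normalization (exact permutation p = 0.143). Over its genes above the highest negative control median it was 0.23 (exact permutation p = 0.400). Over those above the 75th percentile it was 0.077 (exact permutation p = 0.914). The relation of Cd55 with the fibroblast list (r = 0.682, exact permutation p = 0.0622, adjusted 0.272; rho = 0.571) was -0.254 without Control arrays 3 and 4, and that of Serping1 with the interferon list -0.668 without EKO array 2 and Control array 2. C2 lay below the negative controls, which limits its values.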
